A study of Mus musculus with 15 samples.

Results

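KO3, a mouse T cell leukemia labelled as a Bcat1 knock-out, was set against WT6, a leukemia of the same design labelled as Bcat1 wild type, across all genes of the count table. The comparison used 6 of the 15 RNA-seq libraries of the series, 3 of KO3 and 3 of WT6, and the members were chosen by the genotype and leukemia named in the labels. KO3 arose from bone marrow progenitors of Bcat1 knock-out mice and WT6 from the same kind of progenitors of Bcat1 wild-type mice. The donor cells were lineage-negative, Kit-positive and Sca1-positive cells that had received ΔE-NOTCH1, a NOTCH1 receptor without its extracellular part that signals without ligand, and were sorted as GFP-positive before they went into lethally irradiated C57BL/6J hosts. The RNA came from spleen leukemic T cells, and both leukemias had PBS as vehicle, per the labels. Every group of the series therefore carries ΔE-NOTCH1. Side values are given for KO7, the other knock-out leukemia, for the wild-type leukemia WT0 after ERG-245, an inhibitor of BCAT1 (3 doses of 30 mg per kg, 8 h apart), and for WT0 after PBS.

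BCAT1 is the cytosolic branched-chain aminotransferase. It passes the amino groups of the branched-chain amino acids leucine, isoleucine and valine to 2-oxoglutarate, so that glutamate and keto acids form, and the reaction can run in either direction. BCAT2 does the same in mitochondria, where the branched-chain keto acid dehydrogenase then commits the carbon skeletons to degradation. Leucine is also a signal for the growth kinase mTORC1, and 2-oxoglutarate is the cosubstrate of the dioxygenases that demethylate histones and DNA.

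The libraries held 20633146 to 21068573 counts in KO3 and 21704083 to 28902573 in WT6. The biological coefficient of variation between libraries of a group was 2.18%, and the labels do not say whether the 3 libraries of a group came from separate mice. All p-values below are from edgeR's quasi-likelihood test with Benjamini-Hochberg adjustment over all genes and measure the spread between these libraries, which may be technical. KO3 and WT6 are a single leukemia each, so a difference of genotype and a difference between leukemias cannot be told apart here. Levels are in CPM, counts scaled to a common library total after TMM adjustment, and fold changes are log2 values of KO3 over WT6.

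Bcat1, the gene knocked out, was low but not absent in KO3. It had 6.85, 6.17 and 7.85 CPM in the KO3 libraries, against 34.8, 35.3 and 35.6 CPM in the WT6 libraries. The groups did not overlap, and the log2 fold change was -2.34 (SE 0.08, adjusted p = 6e-41). The KO3 level was 19.7% of that of WT6, from 132 to 170 counts per library. KO7 averaged 2.09 CPM, WT0 with ERG-245 13.3 CPM and WT0 with PBS 17.8 CPM. Counts per gene do not show which exons these reads came from.

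**Figure D1:**
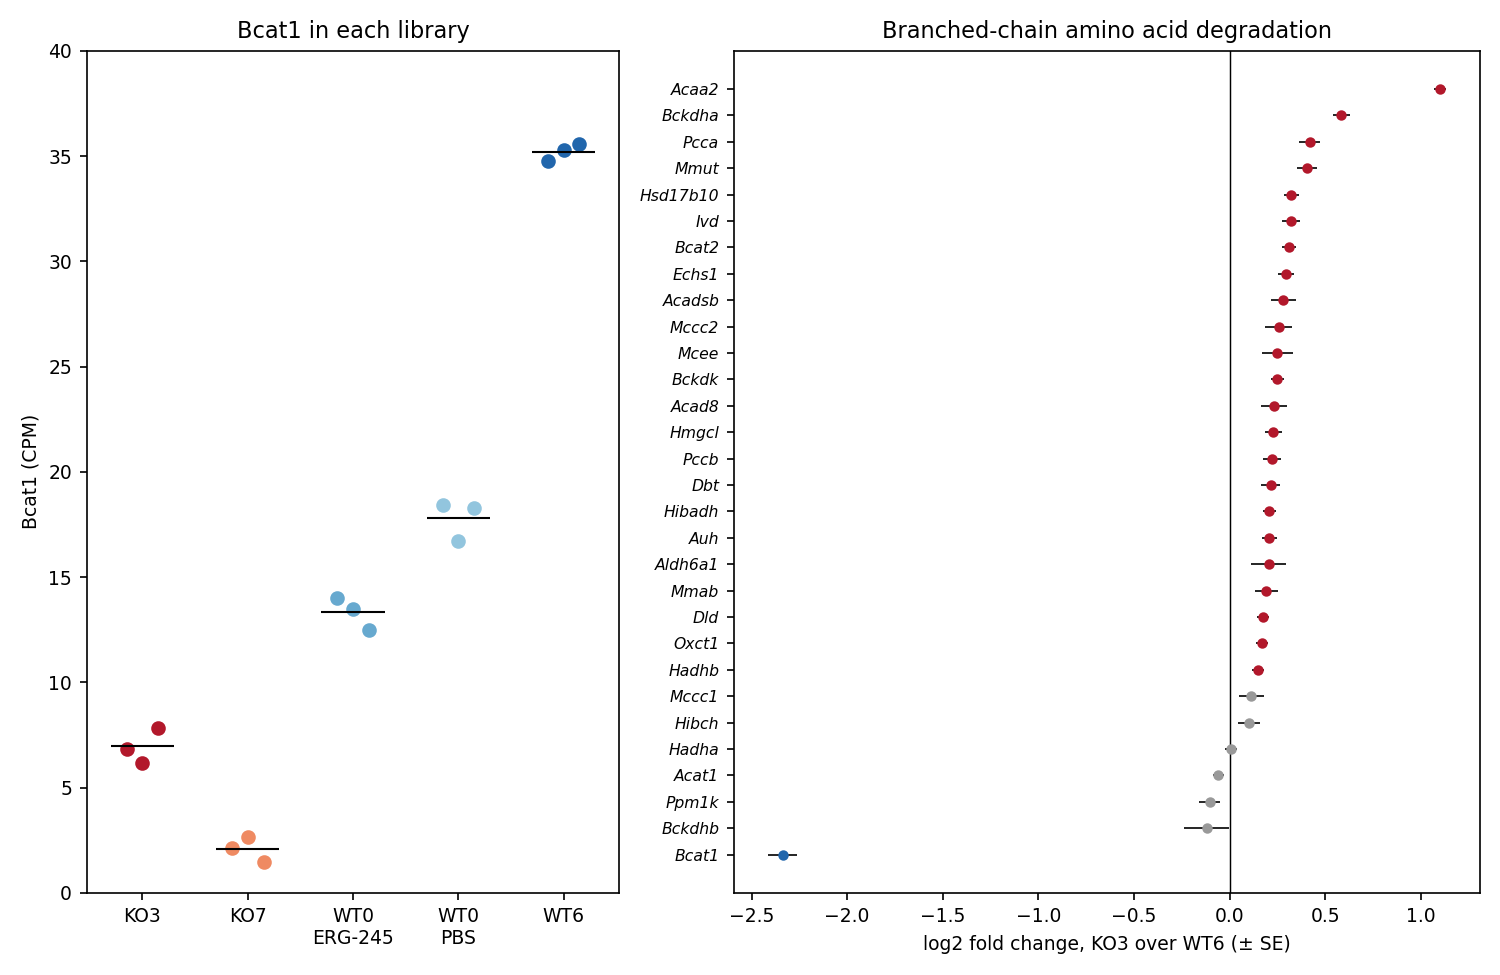
Left, Bcat1 in CPM in each of the 15 libraries (points) with group means (lines): the KO3 libraries sit between 6.17 and 7.85 CPM and the WT6 libraries between 34.8 and 35.6 CPM. Right, log2 fold change of KO3 over WT6 with its standard error for the 30 tested genes of branched-chain amino acid degradation, in red for 23 that rose, in blue for Bcat1, and in grey for those not called.

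The rest of the branched-chain amino acid pathway moved little, and mostly upward. Across all genes, 9522 of 15948 tested were called (59.7%), with 4421 higher in KO3 (27.7%) and 5101 lower (32%). Which direction held more genes depended on the scaling, with 4844 higher and 4719 lower under upper quartile scaling. Of the called genes, 37.5% changed by less than 1.2-fold, so a call by itself says little about size here. At least 2-fold changes were counted in 644 genes higher in KO3 (4.04%) and in 1189 lower (7.46%). Of 30 tested genes of branched-chain amino acid degradation, 23 were higher and 1, Bcat1 itself, was lower, with a median log2 of 0.22 against -0.02 for all tested genes. Bcat2 had 71.6, 72.2 and 76.4 CPM in KO3 and 58.8, 59.9 and 59.2 CPM in WT6 (log2 0.31, SE 0.04, adjusted p = 3.77e-11). Bckdha, the E1 alpha subunit of the keto acid dehydrogenase, had 51, 52.3 and 54 CPM in KO3 against 33.7, 35.1 and 36.5 CPM in WT6 (log2 0.58, SE 0.05). Its partner subunit gene Bckdhb was not called, at 5.62 ± 0.413 CPM in KO3 and 6.1 ± 0.14 CPM in WT6 (SD, n = 3 each). The kinase gene Bckdk, whose product switches the complex off, rose by a log2 of 0.25, and the phosphatase gene Ppm1k, which opposes it, was not called (log2 -0.11). Further along the pathway, Ivd for leucine (log2 0.32), Pcca of propionyl-CoA carboxylase (0.42) and Mmut, methylmalonyl-CoA mutase (0.40), rose. Acaa2, a mitochondrial thiolase, showed the largest increase of the list, with 186 to 196 CPM in KO3 and 87.8 to 93.3 CPM in WT6 (log2 1.10). Per kilobase of merged exons, the KO3 level of Bcat1 was 0.765 ± 0.0929 RPKM and the WT6 level 3.88 ± 0.0458 RPKM (SD, n = 3 each).

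Of 39 genes of leucine sensing and mTORC1, 8 rose (20.5%) and 14 fell (35.9%), close to the shares over all genes (27.7% and 32%), so the single genes are given as values. Castor2, whose family member CASTOR1 senses arginine, fell (1.49 ± 0.286 CPM in KO3 and 3.04 ± 0.249 CPM in WT6, SD, n = 3 each). Sesn2, which encodes a leucine sensor, fell by 0.50 on the log2 scale, and its relative Sesn3 fell by 0.83. Deptor, an inhibitor of mTOR, had 73.3, 75.6 and 74.8 CPM in KO3 against 124, 124 and 117 CPM in WT6 (log2 -0.71). Tfeb, the lysosomal transcription factor held back by mTORC1, fell (log2 -0.99), whereas Rragd, one of the Rag GTPase genes, rose (log2 0.52). Among 22 amino acid transporters, 6 rose (27.3%) and 9 fell (40.9%), also near those shares. Slc7a5, the light chain of the leucine transporter LAT1, was not called (103 ± 2.16 CPM in KO3 and 105 ± 2.95 CPM in WT6, SD, n = 3 each), and its heavy chain gene Slc3a2 fell by 0.21. Slc43a1, a facilitated carrier of large neutral amino acids, had 115, 124 and 124 CPM in KO3 and 55.9, 62 and 58.5 CPM in WT6 (log2 1.04). The arginine and lysine carrier gene Slc7a3 was low in every KO3 library (0.554 to 0.841 CPM, against 4.34 to 4.52 CPM in WT6, log2 -2.75).

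KO3 and WT6 used different segments of the T cell receptor loci. A leukemia that grows from a cell with rearranged receptor genes carries that choice of V, D and J segments in all its cells. The shares of V and J segments are described without a test. Trbv15 took 85.7%, 85.8% and 85.2% of the Trbv counts in the KO3 libraries, against 3.38%, 3.7% and 3.63% in the WT6 libraries. Trbv19 led in WT6, with 55%, 54.4% and 53.9%, and took 0.00669% to 0.00992% in KO3. WT6 also held 18.9% Trbv2 and 13.4% Trbv13-2, so its leading segments were more mixed than those of KO3, where Trbv13-2 came next with 8.72%. The J segment Trbj2-1 took 45.9% of the Trbj counts in KO3 and 2.19% in WT6, where Trbj2-7 led with 26.7%. These shares rest on 29881 to 30237 Trbv counts per library in KO3 and on 13211 to 18480 in WT6. The constant segment Trbc1 rose with a log2 of 2.42 (1604 ± 7.89 CPM in KO3 and 299 ± 3.92 CPM in WT6), and Trbc2 with a log2 of 0.78 (1231 ± 18.4 CPM in KO3 and 718 ± 24 CPM in WT6, SD, n = 3 each). The 2 constant segments are near-identical, and how reads shared between them were counted was not stated.

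Prss2, a trypsinogen gene, lies inside the receptor beta locus on chromosome 6 (positions 41521776 to 41525079, GRCm38.p6), between Trbv19 (41178589 to 41179048) and Trbc1 (41538219 to 41539665). It had 0 counts in each KO3 library and 194, 137 and 157 counts in the WT6 libraries. With a floor of 3 counts over the KO3 group it was at least 134-fold lower in KO3.

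The gamma and delta loci differed as well. Trgv2 averaged 0.189% of the Trgv counts in KO3 and 68.4% in WT6. The constant segment Trgc2 had 17, 23 and 21 counts in KO3 against 9857, 7875 and 7107 in WT6. Trgv4 took 80.5 ± 2.27% of the 641 to 707 Trgv counts in KO3 and 22.9 ± 0.61% of the 4332 to 5882 Trgv counts in WT6 (SD, n = 3 each). Its own level was lower in KO3, at 25.6 ± 0.889 CPM and 44.2 ± 1.53 CPM in WT6 (log2 -0.79, SD, n = 3 each). At the delta locus, Trdv5 took 92.2% of 1302 to 1433 Trdv counts in KO3 and 11.6% of 80 to 105 in WT6. Trac, the alpha constant segment, was lower in KO3, at 53.7 ± 1.63 CPM and 134 ± 2.39 CPM in WT6 (log2 -1.32), and Trdc higher, at 192 ± 7.9 CPM and 126 ± 1.04 CPM in WT6 (log2 0.60, SD, n = 3 each).

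**Figure D2:**
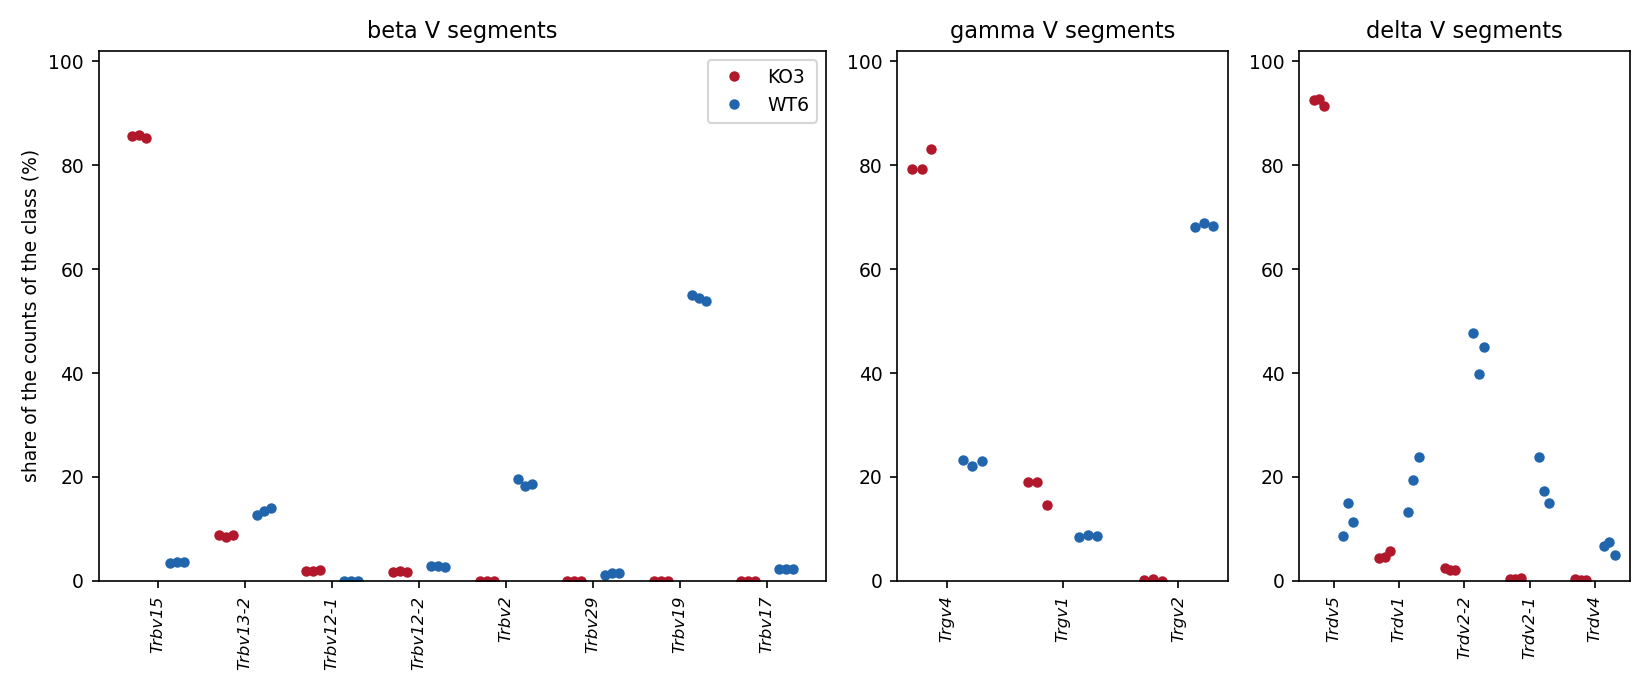
Share of the counts of each class (y axes, %) taken by each V segment in the 3 KO3 libraries (red) and the 3 WT6 libraries (blue), for segments with a mean of at least 1% in a group. Trbv15, Trgv4 and Trdv5 lead in KO3, at 85.6%, 80.5% and 92.2%, and Trbv19, Trgv2 and Trdv2-2 lead in WT6, at 54.4%, 68.4% and 44.1%.

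Spleen leukemia samples can hold other spleen cells, and marker genes of these cells were lower in KO3 than in WT6 for most types. In bulk RNA, fewer cells of a type and less RNA per cell cannot be told apart. Immunoglobulin genes made up 0.753% to 0.756% of counts in KO3 and 2.44% to 2.56% in WT6. They averaged 0.766% in KO7, 0.76% in WT0 with ERG-245 and 0.236% in WT0 with PBS, so WT6 had the highest share. Of 95 tested heavy-chain V segments, 88 were lower in KO3 and 2 higher, with a median log2 of -2.01, and of 95 kappa V segments 88 were lower and 3 higher (median -1.99). Igkc had 1584, 1571 and 1536 CPM in KO3 and 5935, 5612 and 5827 CPM in WT6 (log2 -1.89). The constant segments of IgG1 and IgE moved alike, with Ighg1 at 1237 ± 9.44 CPM in KO3 and 4556 ± 182 CPM in WT6, and Ighe at 1251 ± 11.8 CPM in KO3 and 4314 ± 113 CPM in WT6 (SD, n = 3 each). Of 12 plasma cell markers 10 fell, and their summed share was 0.0884% to 0.0912% in KO3 and 0.202% to 0.204% in WT6. The share averaged 0.0583% in KO7, 0.0714% in WT0 with ERG-245 and 0.0376% in WT0 with PBS. Jchain, which joins IgM and IgA into polymers, fell by 1.55 on the log2 scale and Mzb1, an endoplasmic reticulum factor for immunoglobulin assembly, by 1.54. Of 16 B cell markers 13 fell, Cd79a of the B cell receptor among them (log2 -1.13), with summed shares of 0.0105% to 0.0109% in KO3 and 0.0209% to 0.0211% in WT6.

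Most neutrophil, macrophage, dendritic cell, platelet and stromal markers fell too. Of 16 tested neutrophil markers 15 fell (summed share 0.0215% to 0.0219% in KO3 and 0.0404% to 0.0431% in WT6). Their share averaged 0.0159% in KO7, 0.00197% in WT0 with ERG-245 and 0.0088% in WT0 with PBS. Of 23 macrophage and monocyte markers 15 fell and 3 rose, and their share was 0.201% to 0.205% in KO3 and 0.271% to 0.28% in WT6. Here KO7 was highest, with a mean of 0.455%, and WT0 with PBS lowest, with 0.157%. Lyz2, lysozyme, had 172, 180 and 162 CPM in KO3 and 383, 437 and 427 CPM in WT6, whereas Cd5l of splenic macrophages rose (log2 0.53). Of 10 tested dendritic cell markers 8 fell and 1 rose (mean share 0.0226% in KO3 and 0.0362% in WT6). The largest fall among them was Ccr9, which is also in the list of T cell homing receptors. Much of the difference in this share is Ccr9 itself (16.8 CPM in KO3 and 122 CPM in WT6). Of 12 platelet markers 7 fell (0.0205% in KO3 and 0.0259% in WT6). Of 18 stromal and endothelial markers 13 fell and 2 rose, and their summed share was 0.0624% in KO3 and 0.0667% in WT6. A large part of that sum is Pdgfrb, which rose against most of the list (228 CPM in KO3 and 148 CPM in WT6, log2 0.62). Of 12 tested NK and cytotoxic markers 4 rose (33.3%) and 5 fell (41.7%), against 27.7% and 32% over all genes. Gzmb, the protease granzyme B, was higher in KO3 (6.71, 5.7 and 7.57 CPM, against 1.13, 0.984 and 0.798 CPM in WT6), and Eomes, a transcription factor of cytotoxic cells, lower (log2 -2.15). Klra4 had 0 counts in both groups and Klra8 0 counts in KO3.

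Red cell genes hardly separated the groups. Erythroid markers summed to 1.24% to 1.28% of counts in KO3 and 1.29% to 1.46% in WT6, and their median log2 was 0.08, with 11 of 21 higher and 4 lower. Hbb-bs, an adult beta globin, had 5083, 5027 and 5477 CPM in KO3 and 5397, 5227 and 6243 CPM in WT6. These ranges overlap, and the call of Hbb-bs (log2 -0.11, adjusted p = 0.00367) was lost without WT6 replicate 3 (adjusted p = 0.402 in edgeR). A set of 9 T cell genes summed to 0.572% to 0.582% of counts in KO3 and 0.538% to 0.551% in WT6. These were Cd3d, Cd3e, Cd3g, Cd247, Lck, Cd2, Thy1, Ptcra and Notch1, and they were all detected in every library of KO3 and WT6.

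**Figure D3:**
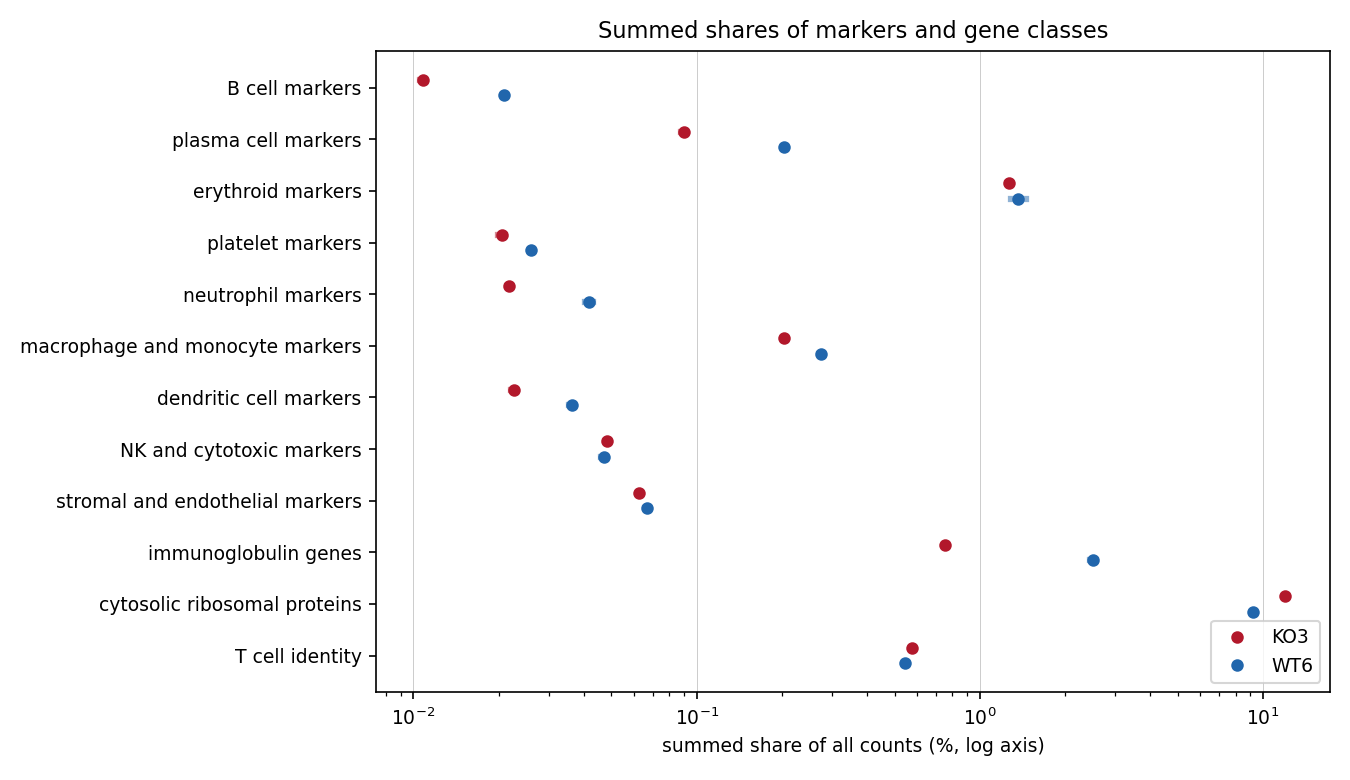
Summed share of all counts (x axis, %, log scale) of marker lists and gene classes, with the mean (point) and the range over 3 libraries (bar) of KO3 (red, above) and WT6 (blue, below). Immunoglobulin genes average 0.755% in KO3 and 2.51% in WT6, whereas erythroid markers average 1.26% in KO3 and 1.36% in WT6.

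Genes of the unfolded protein response were lower in KO3 than in WT6. Misfolded protein in the endoplasmic reticulum activates the sensors IRE1, PERK and ATF6, which raise chaperones through XBP1, ATF4 and ATF6 itself. Of 27 tested genes 24 fell and 0 rose, with a median log2 of -0.47. All 3 sensor genes fell: Ern1 by 0.48, Eif2ak3 by 0.40 and Atf6 by 0.44 on the log2 scale. Hspa5, the chaperone BiP, had 509, 503 and 492 CPM in KO3 and 682, 691 and 652 CPM in WT6 (log2 -0.43, SE 0.02, adjusted p = 1.09e-27). Xbp1 had 154, 156 and 152 CPM in KO3 and 249, 242 and 243 CPM in WT6 (log2 -0.67). Derl3, a member of this list and of the plasma cell list, fell most (13.8, 14.3 and 12 CPM in KO3 against 35, 32.1 and 34.8 CPM in WT6). Hsp90b1 averaged 637 CPM in KO3 and 1067 CPM in WT6, with 421 CPM in KO7 and 463 CPM in WT0 with PBS. Edem1 averaged 637 CPM in KO3 and 1040 CPM in WT6, with 627 CPM in KO7 and 640 CPM in WT0 with PBS. For Dnajc3 the means were 162 CPM in KO3, 259 CPM in WT6, 193 CPM in KO7 and 122 CPM in WT0 with PBS. The lectin chaperone gene Canx was not called (log2 0.03), nor were Sec61b (-0.02) and Ssr1 (0.04), although Ssr1 passed without WT6 replicate 2 (edgeR adjusted p = 0.0271). The immunoglobulin share was also lower in KO3 (0.755% against 2.51% in WT6), and its part in these changes was not tested.

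ATF6 and XBP1 act through the endoplasmic reticulum stress element, which is CCAAT, 9 bases of any kind and CCACG. It was searched on both strands of RefSeq promoters of GRCm38.p6, each running from 250 bases before the gene start to 50 after. At least 1 match stood in 9 of the 23 unfolded protein response genes with a promoter (39.1%), against 0.18% of the 12214 tested genes that had one. The list was made of genes of this response, so the share describes the list and not the difference between KO3 and WT6. Its CCACG end, which also lies inside every full match, was found in 82.6% of the list and 49.3% of the tested genes. The matches are printed because the genes that carry them did not all move: 8 of the 9 genes fell, and Canx did not pass. In the whole list 24 of 27 fell. Each is read along the element, with the element in capitals and 5 flanking bases on either side, and Hsp90b1, the chaperone GRP94, has 2. Of the other genes, Creld2 and Pdia6 encode disulfide isomerases, Dnajc3 a cochaperone, Syvn1 the ubiquitin ligase of the degradation pathway and Calr the lectin calreticulin.
Hspa5 (chr2:34772025-34772043, plus strand): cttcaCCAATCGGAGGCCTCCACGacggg
Hsp90b1 (chr10:86705638-86705656, minus strand): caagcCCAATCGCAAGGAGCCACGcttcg
Hsp90b1 (chr10:86705533-86705551, plus strand): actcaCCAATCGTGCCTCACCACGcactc
Creld2 (chr15:88819520-88819538, minus strand): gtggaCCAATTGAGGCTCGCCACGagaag
Derl3 (chr10:75893242-75893260, minus strand): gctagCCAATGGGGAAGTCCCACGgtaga
Dnajc3 (chr14:118937827-118937845, plus strand): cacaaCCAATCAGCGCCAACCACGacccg
Pdia6 (chr12:17266491-17266509, plus strand): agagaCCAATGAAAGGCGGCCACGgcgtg
Syvn1 (chr19:6046532-6046550, plus strand): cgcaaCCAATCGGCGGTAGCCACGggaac
Calr (chr8:84847075-84847093, plus strand): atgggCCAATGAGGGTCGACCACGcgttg
Canx (chr11:50325800-50325818, minus strand): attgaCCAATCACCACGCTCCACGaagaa

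The changes of these carriers differed in size. Creld2 fell by 0.77, Hsp90b1 by 0.74, Dnajc3 by 0.68, Syvn1 by 0.36 and Pdia6 by 0.29 on the log2 scale, and Calr by 0.05 with overlapping libraries (567, 559 and 535 CPM in KO3 and 577, 584 and 563 CPM in WT6). The call of Calr (edgeR adjusted p = 0.028) was lost without KO3 replicate 3 (0.379), WT6 replicate 1 (0.0913) or WT6 replicate 2 (0.164). The whole Hspa5 promoter (chr2:34771840-34772139, plus strand) shows where its element lies, 65 bases before the gene start.
Hspa5: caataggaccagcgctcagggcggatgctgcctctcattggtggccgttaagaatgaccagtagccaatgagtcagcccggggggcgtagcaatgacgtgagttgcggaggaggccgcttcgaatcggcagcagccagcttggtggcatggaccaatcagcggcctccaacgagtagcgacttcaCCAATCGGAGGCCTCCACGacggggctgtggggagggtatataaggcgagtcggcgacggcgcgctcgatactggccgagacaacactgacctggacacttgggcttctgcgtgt

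Targets of ATF4, the transcription factor made when amino acids run short or the endoplasmic reticulum is stressed, were also lower. Of 27 tested genes 22 fell and 1, Mthfd1l, rose, and Atf4 itself fell by 0.16 on the log2 scale. Pycr1, the last enzyme of proline synthesis, had 3.45, 2.29 and 2.77 CPM in KO3 and 10.7, 12.3 and 11.2 CPM in WT6 (edgeR adjusted p = 9.87e-24). Chac1, which degrades glutathione, had 0.803, 1.64 and 1.29 CPM in KO3 and 4.26, 4.17 and 4.48 CPM in WT6 (log2 -1.78, SE 0.21, adjusted p = 1.52e-11). Asns, asparagine synthetase, fell by 0.74 and the serine synthesis genes Phgdh, Psat1 and Psph by 0.25, 0.22 and 0.38. Ddit3 (CHOP) was not called. ATF4 binds the composite element TGATGNAA, which was found on either strand in 9 of 26 promoters of the list (34.6%) and in 2.97% of the promoters of tested genes. That share, too, describes the list and not the difference between KO3 and WT6. Of the 9 genes, Vldlr was not called (log2 -0.38, adjusted p = 0.258) and the other 8 fell, Atf3 (log2 -0.86) among them. The call of Trib3, a pseudokinase gene (log2 -0.40, edgeR adjusted p = 0.0325), was lost without KO3 replicate 1 (0.156), KO3 replicate 3 (0.0801), WT6 replicate 2 (0.0588) or WT6 replicate 3 (0.122). The 4 sites below are from carriers with large changes and are shown with the element in capitals and 5 bases on either side, the cystine carrier gene Slc7a11 (log2 -1.18) by the nearer of its 2 sites to the gene start.
Pycr1 (chr11:120643844-120643851, minus strand): gtgtaTGATGCAAtgcac
Chac1 (chr2:119351049-119351056, minus strand): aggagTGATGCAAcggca
Slc7a11 (chr3:50443653-50443660, plus strand): catgaTGATGCAAattct
Asns (chr6:7693225-7693232, minus strand): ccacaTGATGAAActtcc

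Most genes of ribosomes and DNA replication were higher in KO3. Of 80 cytosolic ribosomal protein genes 78 rose and 0 fell, with log2 values of 0.04 to 0.61 and a median of 0.40. Together they took 11.9% to 12.1% of counts in KO3 and 9.19% to 9.32% in WT6. Rplp0 had 4429, 4359 and 4427 CPM in KO3 and 3191, 3172 and 3311 CPM in WT6. The elongation factor Eef1a1, the most abundant transcript of both groups, averaged 13643 ± 178 CPM in KO3 and 9984 ± 164 CPM in WT6 (SD, n = 3 each). Myc rose (291, 282 and 298 CPM in KO3, against 207, 204 and 198 CPM in WT6), and Mxd4, which encodes a MAX partner that opposes MYC, fell by 0.67. Of 38 genes of MYC and ribosome biogenesis 28 rose and 4 fell. Of 77 mitochondrial ribosomal protein genes 46 rose and 3 fell.

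Of 42 DNA replication genes 37 rose and 2 fell. Of 38 mitosis genes 6 rose (15.8%) and 12 fell (31.6%), against 27.7% and 32% over all genes. Prim2, a subunit of primase, changed most (103, 105 and 104 CPM in KO3 and 59.5, 60.2 and 60.8 CPM in WT6, log2 0.79). E2f1, the activator of S-phase genes, rose by a log2 of 0.46, and the helicase gene Mcm7 by 0.30. In mitosis, Cdc20, which activates the anaphase-promoting complex, rose (log2 0.46), whereas Cenpe and Bub1b of the spindle checkpoint fell by 0.32 and 0.29, and Mki67 by 0.11. The median log2 was 0.20 for replication, and for mitosis it lay at the level of all tested genes and changed sign between alternatives (-0.03 to 0.00). The E2F site TTTGGCGC stood in 21.2% of 33 replication promoters against 1.03% of those of tested genes, and the variant TTTCCCGC in 18.2% against 2.18%. Both shares describe the list and not the difference between KO3 and WT6. Of 32 genes of nucleotide and folate synthesis 24 rose and 5 fell. Impdh2, which commits purines to GMP, had 348, 356 and 347 CPM in KO3 and 206, 201 and 205 CPM in WT6 (log2 0.78), and Adss on the branch to AMP rose by 0.67. The exceptions included the mitochondrial folate genes Shmt2 and Mthfd2, which are also in the ATF4 list and fell by 0.17 and 0.18. Mthfd1l, another mitochondrial folate gene of the ATF4 list, rose by 0.13.

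Of 37 complex I genes 25 rose and 3 fell. Of 38 genes of complexes II to V and cytochrome c 27 rose and 1, the cytochrome c gene Cycs, fell. Of 33 genes of the TCA cycle and glutamate metabolism 18 rose (54.5%) and 4 fell (12.1%), against 27.7% and 32% over all genes. Idh2, the mitochondrial NADP isocitrate dehydrogenase that makes 2-oxoglutarate, had 122, 120 and 126 CPM in KO3 and 64.1, 63.3 and 63 CPM in WT6 (log2 0.95), and cytosolic Idh1 fell by 0.27. The glutaminase gene Gls2 rose at a low level (2.97 ± 0.261 CPM in KO3 and 1.53 ± 0.223 CPM in WT6, SD, n = 3 each). Of 30 dioxygenases that use 2-oxoglutarate 5 rose (16.7%) and 13 fell (43.3%), and their median log2 was -0.07. Tet1, which oxidises methylcytosine, fell most (15.3, 19 and 16.2 CPM in KO3 and 36.7, 35.5 and 33.9 CPM in WT6, log2 -1.07).

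Of 34 glycolysis and hypoxia genes 19 rose (55.9%) and 7 fell (20.6%). Ndrg1, a hypoxia-induced gene, had 210, 211 and 207 CPM in KO3 and 36.7, 40 and 39.5 CPM in WT6 (log2 2.44, SE 0.03), with 214 CPM in WT0 with PBS. Pfkl, a phosphofructokinase, rose by a log2 of 0.79, and Pfkp, another isoform, fell by 0.52. Aldoa (0.41), Pkm (0.33) and Ldha (0.26) rose, and Slc2a1, the glucose carrier GLUT1, was not called. Among 34 redox and NRF2 target genes, 20 were higher (58.8%) and 8 lower (23.5%). Gsr, glutathione reductase, rose (244, 247 and 250 CPM in KO3 and 151, 150 and 151 CPM in WT6), and Mgst2, a microsomal glutathione transferase, was lower (6.71, 7.52 and 5.58 CPM in KO3 and 30.6, 31.7 and 29 CPM in WT6). Of 34 cholesterol and fatty acid genes 10 rose (29.4%) and 9 fell (26.5%), near the shares over all genes (27.7% and 32%). The squalene epoxidase gene Sqle had a log2 of 0.43 and Scd2, a stearoyl-CoA desaturase gene, a log2 of -0.45.

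**Figure D4:**
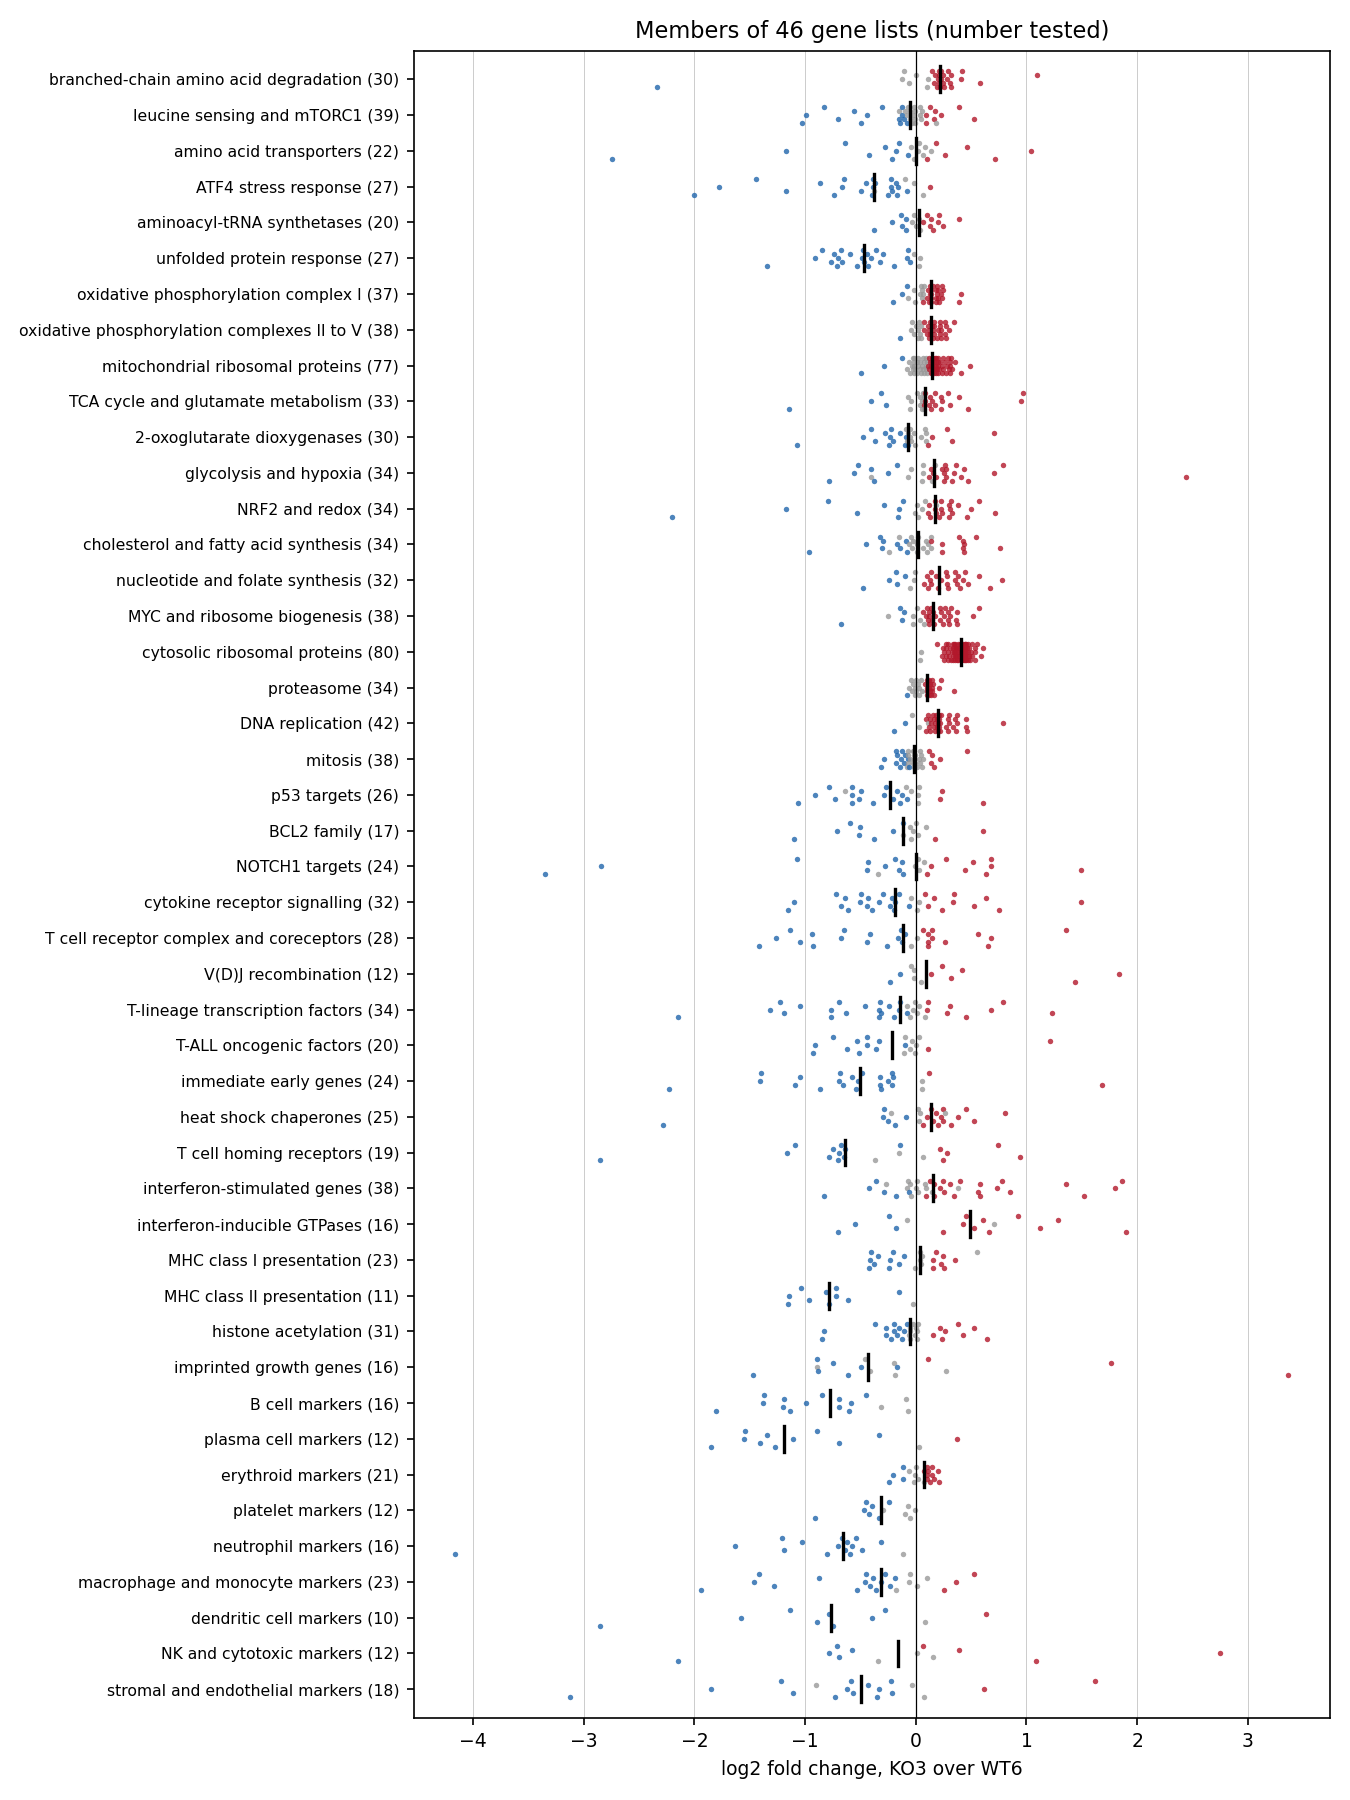
Log2 fold change of KO3 over WT6 (x axis) for the tested members of 46 gene lists (rows, number tested in parentheses). Points are genes, red for higher and blue for lower at an adjusted p under 0.05 and grey for not called, and black ticks are medians, which run from -1.19 for plasma cell markers to 0.49 for interferon-inducible GTPases.

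Targets of NOTCH1, the driver in these cells, moved in both directions. Notch1 itself was not called (1082, 1056 and 1083 CPM in KO3 and 1041, 1052 and 1089 CPM in WT6). The table does not tell the mouse gene from the introduced ΔE-NOTCH1. Of 24 tested targets 9 rose (37.5%) and 10 fell (41.7%), against 27.7% and 32% over all genes, and their median log2 was 0.003. Hes5, a direct target, had 3.35, 2.8 and 2.63 CPM in KO3 and 28.4, 30.4 and 30.8 CPM in WT6 (log2 -3.35), and Hey1, of the same repressor family, fell by 2.85 from low counts. Their levels in WT0 with PBS were 1.3 CPM for Hes5 and 0.415 CPM for Hey1, nearer to KO3 than to WT6. Hes1, the target most tied to T cell leukemia, moved the other way (51.9 ± 2.09 CPM in KO3 and 38 ± 2.41 CPM in WT6, SD, n = 3 each). Dtx1, a ubiquitin ligase that modulates NOTCH, had 564, 544 and 575 CPM in KO3 and 1161, 1173 and 1202 CPM in WT6 (log2 -1.07). Igf1r, the IGF1 receptor, rose to 209 ± 5.9 CPM in KO3, against 74.4 ± 1.13 CPM in WT6 (log2 1.49), and Il7r, the IL-7 receptor, by a log2 of 0.64.

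Genes that mark stages of T cell development did not move as a block. T cells pass through a stage without CD4 and CD8 and then a stage with both before they keep only 1 of them. Cd8a had 323, 332 and 324 CPM in KO3 and 875, 863 and 872 CPM in WT6 (log2 -1.41, SE 0.02), its partner Cd8b1 fell by 1.14 and Cd4 by 0.93. The CD3 genes Cd3g, Cd3d and Cd3e rose by log2 values of 0.56, 0.65 and 0.68, and Cd247, the zeta chain, fell by 0.41. Of the 28 genes of receptor complex and coreceptors 11 rose (39.3%) and 15 fell (53.6%), against 27.7% and 32% over all genes. The recombination genes Rag2 (71.6, 75.8 and 76.1 CPM in KO3 and 21.8, 21 and 19.5 CPM in WT6) and Dntt, which adds bases at V(D)J joints (710, 686 and 679 CPM in KO3 and 256, 262 and 250 CPM in WT6), were higher, and Rag1 rose by 0.31. Ptcra, the surrogate alpha chain of immature cells, fell by 0.13.

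Of 34 transcription factors of the T lineage 8 rose (23.5%) and 19 fell (55.9%), against 27.7% and 32% over all genes. Foxo1, which keeps lymphocytes quiescent and homing, had 36.9, 35.9 and 35 CPM in KO3 and 85.3, 83.1 and 84.4 CPM in WT6 (log2 -1.23). Zbtb7b, the CD4 lineage factor ThPOK, fell by 1.32 and Runx3 of the CD8 lineage by 0.77. Id3 (log2 0.79), Lef1 (0.68) and Runx2 (1.23) rose, and Tcf7 was not called (1699 ± 27.1 CPM in KO3 and 1712 ± 14.6 CPM in WT6, SD, n = 3 each). Of 20 tested oncogenic factors of T-ALL 11 fell (55%) and 2 rose (10%). Among those that rose was Cdk6, the cyclin D kinase, with 409, 422 and 413 CPM in KO3 and 181, 178 and 176 CPM in WT6 (log2 1.22). Its partners Ccnd2 and Ccnd3 fell by 0.53 and 0.44.

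Homing receptors were led by Ccr9, the receptor for the thymic and gut chemokine CCL25, with 16.9, 16.9 and 16.8 CPM in KO3 and 124, 119 and 122 CPM in WT6 (log2 -2.85, SE 0.05). Of the 19 tested, 5 rose (26.3%) and 11 fell (57.9%), against 27.7% and 32% over all genes. Itgb7, the gut-homing integrin chain, fell by 1.10, whereas Itga4, an alpha chain that pairs with it, rose by 0.74. Cytokine receptor genes fell more often than they rose (19 of 32, 59.4%, and 10 of 32, 31.2%). Ifngr1 of the interferon gamma receptor had 118, 119 and 122 CPM in KO3 and 262, 266 and 269 CPM in WT6 (log2 -1.15), and the kinase gene Tyk2 rose by 0.75.

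Immediate early genes, which follow receptor signals within minutes, were mostly lower. Of 24 tested 20 fell and 2 rose, with a median log2 of -0.50. Nr4a1, a reporter of antigen receptor signalling, had 30.6, 30.9 and 29.4 CPM in KO3 and 78.6, 77.1 and 84.4 CPM in WT6 (log2 -1.40), and its relative Nr4a3 fell by 2.23. Fos fell by 1.09 from low levels. Jun, its partner in AP-1, rose to 70.8, 62.8 and 70.1 CPM in KO3, against 20.7, 22.7 and 20.1 CPM in WT6 (log2 1.68).

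Of 26 tested p53 targets 17 fell (65.4%) and 3 rose (11.5%), against 32% and 27.7% over all genes. Ccng1, cyclin G1, had 101, 109 and 112 CPM in KO3 and 162, 161 and 156 CPM in WT6 (log2 -0.57), Cdkn1a, the cell cycle inhibitor p21, fell by 0.79 and the death receptor gene Fas by 1.06. Trp53 itself rose by a log2 of 0.23. Of 17 tested BCL2 family genes 8 fell (47.1%) and 2 rose (11.8%). Bcl2 was not called, Bcl2l11 (BIM) fell by 0.50 and Pmaip1 (NOXA) rose by 0.61, so these BH3-only death genes moved apart.

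Most called genes of the interferon lists rose, with exceptions in each list. Of 38 interferon-stimulated genes 20 rose (52.6%) and 6 fell (15.8%). The largest increases stood in the Ifi200 cluster of DNA sensors on chromosome 1, with Ifi204 at 292, 306 and 292 CPM in KO3 and 83.1, 83.7 and 77 CPM in WT6 (log2 1.86) and Ifi211 at 130 ± 4.03 CPM in KO3 and 37.4 ± 1.72 CPM in WT6 (SD, n = 3 each). Irf7 and Ifit3 were not called, and Mx1 fell by 0.83. Of 16 tested interferon-inducible GTPases 10 rose (62.5%) and 4 fell (25%). Gbp2 rose by a log2 of 0.92 and Tgtp1 by 1.90, although Tgtp1 and Tgtp2 are near-identical copies whose counts are uncertain. Of 23 genes of MHC class I presentation 7 rose (30.4%) and 10 fell (43.5%), against 27.7% and 32% over all genes, and H2-K1 fell by 0.40. Of 11 class II genes 10 fell. H2-Aa had 112, 115 and 114 CPM in KO3 and 252, 248 and 260 CPM in WT6 (log2 -1.15), while the B cell marker share was 0.0108% in KO3 and 0.0209% in WT6. The part of B cells in this was not tested.

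Smaller lists gave few large changes, and their shares stand beside 27.7% higher and 32% lower over all genes. Of 20 aminoacyl-tRNA synthetases 9 rose (45%) and 6 fell (30%), with Lars for leucine at -0.12 and Kars for lysine at 0.39. Of 34 proteasome genes 20 rose (58.8%), Psma5 the most (log2 0.34), and 1 fell (2.94%). Of 25 heat shock chaperones 14 rose (56%) and 6 fell (24%), Hsp90ab1 among the higher (log2 0.45). Of 31 genes of histone acetylation 8 rose (25.8%) and 13 fell (41.9%), the deacetylase genes Hdac5 (0.65) and Hdac11 (-0.85) at the ends. Of 16 tested imprinted growth genes 3 rose (18.8%) and 7 fell (43.8%). H19, the maternal noncoding RNA beside Igf2, had 36.6, 36.6 and 36.2 CPM in KO3 and 10.2, 10.9 and 11.1 CPM in WT6 (log2 1.77), and Igf2 fell by 1.47 to 0.544 ± 0.234 CPM in KO3, against 1.54 ± 0.359 CPM in WT6 (SD, n = 3 each).

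The 15 largest increases and 15 largest decreases were mostly genes outside these lists. Among called genes averaging 5 CPM or more over the 6 libraries, Acan, the cartilage proteoglycan aggrecan, rose most, with 14.4, 13.3 and 15.8 CPM in KO3 against 0.499, 0.275 and 0.443 CPM in WT6 (log2 5.12, SE 0.18, adjusted p = 9.45e-39). Cpsf4l (log2 4.08), the tight junction gene Cldn4 (3.81) and Fam163b (3.41) followed. Cldn4 was also high in KO7 (35.8 CPM), with 37.6 CPM in KO3 and 2.67 CPM in WT6. Slc28a2b, related to nucleoside carriers, was the most abundant of these genes (143 ± 5.95 CPM in KO3 and 19.5 ± 0.481 CPM in WT6, SD, n = 3 each). Greb1l, Cltrn, Aif1l, Syt14, Cyp2j6, Scn4b, Zfp503, Pde9a, Paqr5 and Fam178b made up the rest, with log2 values of 3.32 to 2.65 in that order. Scn4b, a beta subunit of sodium channels, averaged 59.6 CPM in KO3 and 60.4 CPM in WT0 with PBS, against 8.45 CPM in WT6. Across the 5 groups of the series, KO3 had the highest mean for 11 of these 15 genes, and WT6 had the lowest mean for 9.

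The largest decrease was Mtus2, a microtubule-associated gene, with 0, 0.14 and 0.185 CPM in KO3 against 15.1, 14.9 and 16.8 CPM in WT6 (log2 -7.09). Srgap3, a GTPase-activating gene, had 2.03, 2.1 and 1.38 CPM in KO3 and 60, 59.3 and 64.1 CPM in WT6 (log2 -5.05). Ntrk3, the neurotrophin-3 receptor, fell by 4.78, Mn1, a transcriptional coactivator and fusion partner in leukemia, by 4.59, and Ly6d, a surface protein of early lymphoid cells, by 4.51. Ly6d had 23, 18.9 and 23.4 CPM in KO3 and 486, 470 and 537 CPM in WT6, the highest level among the 15. Htr4, Grin2c, Padi4, Oprk1, Slc15a2, Hes5, Ccl21a, Fbln2 and Necab1 were also among them, with log2 values of -4.31 to -2.97 in that order. Of the 15, Padi4 stood in the neutrophil list, where S100a8 fell by 0.59, and Ccl21a in the stromal list. Across the 5 groups of the series, WT6 had the highest mean for 14 of these 15 genes, and KO3 had the lowest mean for 6. Srgap3 averaged 2.3 CPM in KO7 and 1.56 CPM in WT0 with PBS, against 61.1 CPM in WT6. The exception was Mn1, which averaged 0.747 CPM in KO3, 18.6 CPM in KO7 and 18 CPM in WT6.

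Gene models were described apart, and these were chosen after their values were seen. Gm4779 and 8030474K03Rik on the X chromosome had 139 to 147 CPM and 87.4 to 92.1 CPM in KO3, and 0 to 0.0393 CPM and 0.0333 to 0.0443 CPM in WT6. KO7 averaged 11.1 CPM of Gm4779 and 7.38 CPM of 8030474K03Rik. A further X-linked model, 3830403N18Rik, had 75.9 to 79.1 CPM in KO3 and 0.487 to 0.932 CPM in WT6.

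Called genes were spread over the genome. Per chromosome, the median log2 lay between -0.11 and 0.01, and the lowest, chromosome 12, was -0.03 without receptor and immunoglobulin segments. Among the 13617 protein-coding genes tested, 7.68% were called and at least 1.4-fold higher and 14% called and at least 1.4-fold lower. A rule chosen after the values were seen counted runs of at least 4 adjacent such genes in the same direction and found 30. The longest was a run of 8 genes on chromosome 9 (positions 44969572 to 45154155, GRCm38.p6): Cd3g, Cd3d, Cd3e, Mpzl2, Mpzl3, Jaml, Scn2b and Scn4b. Within it Mpzl2, a cell adhesion gene of the thymic epithelium, had 211, 218 and 208 CPM in KO3 and 36.4, 35.9 and 35.8 CPM in WT6 (log2 2.56), with 249 CPM in WT0 with PBS and 21.6 CPM in KO7. Scn2b rose by a log2 of 1.73 and Jaml, an adhesion molecule, by 1.22. On chromosome 4, Jun, Fggy, Hook1, Cyp2j6 and Cyp2j9 rose together (log2 1.03 to 2.95), and on chromosome 15 Them6, Lynx1, Ly6d, Ly6k and Cyp11b2 fell together (log2 -4.51 to -0.51). Other runs held families that are expressed in other cell types, such as 5 MHC class II genes on chromosome 17, all lower in KO3.

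**Figure D5:**
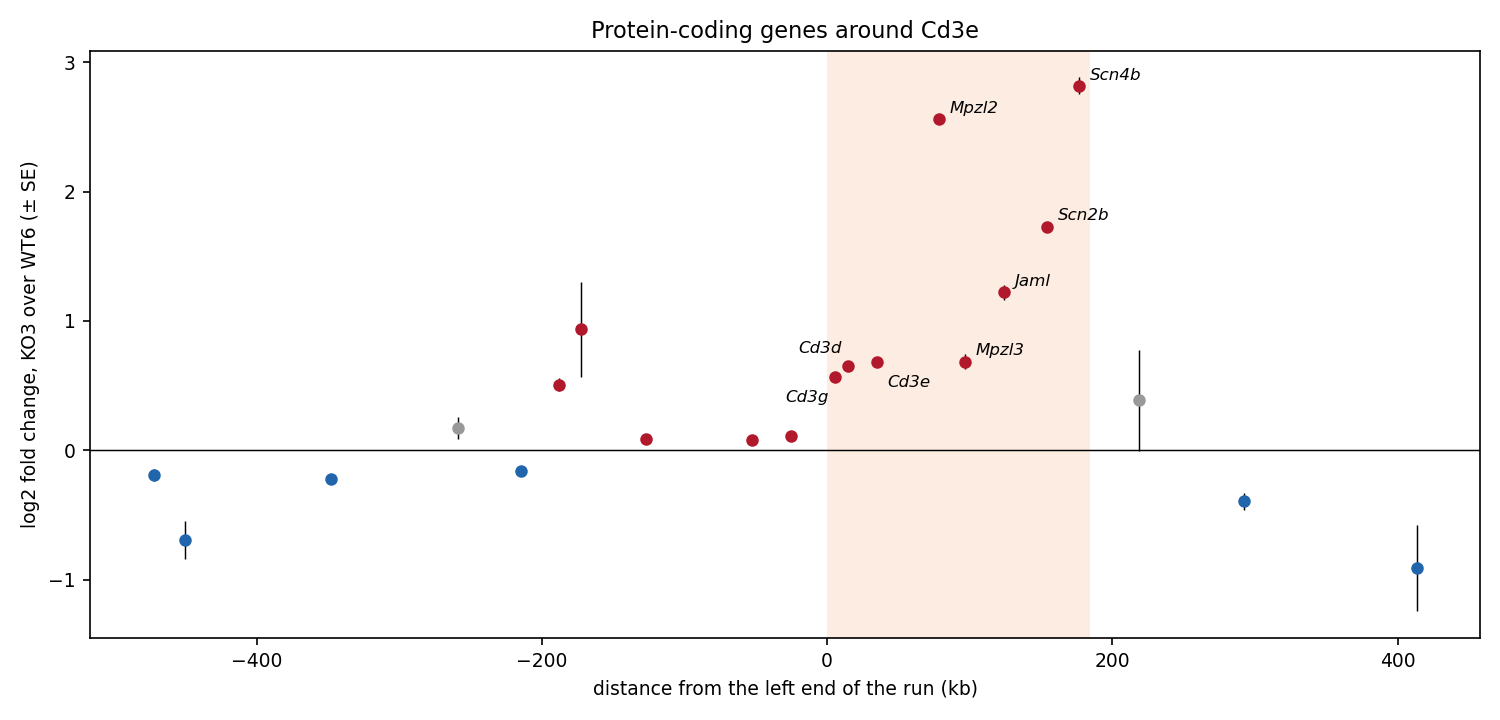
Log2 fold change of KO3 over WT6 with its standard error (y axis) for tested protein-coding genes around Cd3e, by distance in kb from the left end of the run of 8 genes (shaded). The 8 genes have values of 0.56 to 2.82 (red, higher; blue, lower; grey, not called).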

How the data were processed

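The authors deposited whole-number counts of fragments per gene, with the merged exon length of each gene in bases as the other value. Per the file headers, they were made with featureCounts 2.0.1 on RefSeq exons of GRCm38.p6, with a minimum overlap of 25 bases and strand setting 2. Trim Galore, STAR, Subread and mm10 are named in the submitters' processing notes, as is DESeq2. Counts of 39827 genes were read, and 3 genes with broken lines were left out. With edgeR 4.0.16 in R 4.3.3, 15948 genes kept by filterByExpr were scaled by TMM and fitted over all 15 libraries (10 residual degrees of freedom). Standard errors are the log2 fold change over the square root of F. The scripts were tested on simulated data. Named genes were Bcat1, the 15 largest changes per direction (called, at least 5 CPM, no overlap, without gene models and receptor segments), the 4 smallest p per list, further list members by role, and the 5 most abundant genes per group. The members and the 46 lists were chosen with earlier results of these data known, some genes stand in several lists, and no list was tested as a set. Alternatives are in the closing section, DESeq2 1.42.0 among them. There were 0 value columns of other samples. Some genes that the rule names are not reported here.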

Additional observations from a re-analysis of the deposited data

How the results depend on the processing

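The counts of genes, Bcat1, the lists and 319 named genes were recomputed under 15 alternatives: other scalings, other filters on low counts, DESeq2, only the 6 libraries, a replicate block and each library left out. Against a fold of 1.2 (glmTreat), the genes higher in KO3 were 1754 and the genes lower in KO3 were 2575. With 1 library left out, genes higher in KO3 were 4185 to 4349, genes lower 4707 to 4882, genes at least 2-fold higher 654 to 673 and at least 2-fold lower 1171 to 1217, and Bcat1 in KO3 against WT6 had a log2 of -2.43 to -2.25. DESeq2 called 3974 genes higher and 4467 lower, upper quartile scaling 4844 and 4719, and the fit of only the 6 libraries 4684 and 4684. Replicate numbers did not pair the libraries (correlations of -0.023, 0.026 and 0.077 for same-numbered libraries). The replicate block over 15 libraries called 4391 genes higher and 5053 lower (Bcat1 log2 -2.34), and over 6 libraries 4744 and 4737 (log2 -2.32). Medians of 42 of 46 lists kept their sign in every alternative, and those of amino acid transporters, mitosis, NOTCH1 targets and NK markers did not. Of the named genes, 4 changed their call in some alternative: Calr, Trib3, Ssr1 and Hbb-bs. Hbb-bs (adjusted p = 0.255) and Trib3 (0.114) lost it in DESeq2. Calr lost it under upper quartile scaling (0.236 in edgeR), with only the 6 libraries (0.227) and with their block (0.193), and Ssr1 passed under upper quartile scaling (0.0356) and with that block (0.0442). The cause of these shifts was not tested.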
